A study of Mus musculus with 9 samples.

Results

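Messenger RNA of 4 fibroblast growth factor (FGF) receptors, Fgfr1, Fgfr2, Fgfr3 and Fgfr4, and of 6 FGF ligands, Fgf1, Fgf2, Fgf7, Fgf10, Fgf18 and Fgf21, was followed in mouse intrahepatic cholangiocarcinoma cells with and without an intact Vcam1 gene. These 10 genes were taken by their symbols from the 55276 gene symbols of the count table. The cells are PPTR cells, a line grown from mouse liver cancer organoids that carried Prom1CreERT2, a Cre recombinase driven by the Prom1 gene, other engineered alleles and the Rosa-ZsGreen reporter, all shared by every group. Control cells, labelled WT and called Vcam1 Ctrl in the study, were compared with KO1 and KO2, each a single-cell clone made by CRISPR/Cas9 with a guide against exon 2 of Vcam1, which encodes a cell adhesion molecule. Each group had 3 libraries from different passages, 9 in all, and all cells grew in the same serum-containing medium. Since each knockout is 1 clone, loss of Vcam1 and the history of the clone cannot be told apart. The p-values of single clones measure only the spread between passages. Those over both clones mix this with the difference between the clones and take the 6 KO libraries as independent, though they come from 2 clones.

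FGF receptors are tyrosine kinases at the cell surface. Paracrine ligands such as Fgf2 and Fgf7 bind them together with heparan sulphate, while endocrine ligands such as Fgf21 and Fgf15 need a Klotho coreceptor in its place. Bound receptors signal through the adaptor Frs2 to the RAS and ERK cascade, which raises feedback inhibitors of the Sprouty and Dusp families. In liver, hepatocytes are known for Fgfr4 with its coreceptor Klb, the receiver of the gut hormone Fgf15, and FGFR2 fusions are known drivers of human intrahepatic cholangiocarcinoma.

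Library totals lay between 53415907 and 125223073 estimated counts. Vcam1 itself was at 248, 221 and 329 CPM (counts scaled to the size and composition of each library) in control cells, at 98.8, 92.4 and 128 CPM in KO1 and at 119, 99.4 and 83.0 CPM in KO2, so that its transcript was lower but present in both clones (log2 fold change -1.36 ± 0.17 SE, adjusted p = 0.00021, edgeR's quasi-likelihood test, adjusted after Benjamini and Hochberg as all adjusted p values here, 6 KO against 3 control libraries). For both clones the study itself reported that Vcam1 expression was lost, by quantitative RT-PCR and by flow cytometry of the protein. The published forward primer overlaps the guide sequence, so the RT-PCR and the counts over the whole gene are unlike measures. Counts per gene do not show whether the remaining transcript is intact. KO1 replicate 3 stood apart from the other KO1 libraries, with a chi-square of 240 and 275 per degree of freedom against them where these differed from each other by 36.0. In KO2, replicate 3 differed from the others by 166 and 113, and those from each other by 35.8. Pairs of control libraries differed by 84.4 to 169, as far as KO2 replicate 3 from its group. Control cells had all 10 bile duct epithelial markers above 3 counts in every library. Both clones had 7 of 10 above 3 counts in every library, with Krt18 and Epcam at 3 counts or fewer over the KO2 libraries together. Presence above 3 counts does not mean a kept level. Over both clones 6 of 9 tested markers were lower and 1 higher, with a median log2 fold change of -9.16, beside 43.0% of all tested genes called. Cdh1, which encodes E-cadherin, was among the 7 in each clone and yet fell 572-fold (adjusted p = 3.01e-06). Krt8 was at 5201 CPM or more in control libraries and at most 0.497 CPM in KO libraries, while Sox9 stayed at 107 CPM or more in every library. The summed bile duct markers were at 13569 to 15250 CPM in control cells, 10618 to 11078 CPM in KO1 and 7635 to 11082 CPM in KO2, where nearly all of the sum was Spp1 (osteopontin), which rose 4.09-fold over both clones (adjusted p = 8.21e-05). The summed fibroblast markers were at 432 to 837 CPM in control cells, 10477 to 13052 CPM in KO1 and 6220 to 7532 CPM in KO2. In the clones most of that sum was the collagen Col1a1, while the matrix proteoglycan Dcn was lower in KO1 (log2 -4.11, adjusted p = 0.000222). In control cells the collagen Col1a2, at 259 to 570 CPM, stood above Col1a1, at 55.0 to 136 CPM. The summed hepatocyte markers were at 627 to 999.7 CPM in control cells and at most 3.91 CPM in KO libraries. The hepatocyte regulator Hnf4a held 0 counts in all KO libraries. In control cells most of that sum was Apob, at 380 to 568 CPM, while Alb was at 2.68 to 23.9 CPM. Over both clones 6 of 7 tested hepatocyte markers were lower, beside 43.0% of all tested genes called. Asgr1 did not pass the test (log2 0.38, adjusted p = 0.412). Endothelial markers summed to at most 4.84 CPM and haematopoietic markers to at most 21.1 CPM in any library. The part of these shifts in the FGF results was not tested, and in bulk samples fewer cells of a type and less RNA per cell cannot be told apart.

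The receptor set of PPTR cells differed between all 3 groups. Fgfr1 was about 10-fold higher in both clones and Fgfr4 fell to a few counts in both, whereas Fgfr2 rose in KO1 alone and Fgfr3 fell in KO2 alone, each with a difference between the clones that passed the test. Among ligands, Fgf1 and Fgf18 fell in both clones, Fgf7 rose in KO1, Fgf2 rose in KO2 and Fgf21 fell in KO1. Of the 9 members that passed the filter on low counts, 2 were higher and 3 lower in the 6 KO libraries than in control cells, where 43.0% of 17672 tested genes were called. In KO1 3 were higher and 4 lower, where 59.9% of tested genes were called, and in KO2 2 were higher and 4 lower, where 51.4% were called. Between the clones 7 members differed, 5 higher and 2 lower in KO1, where 38.7% of tested genes were called. The shares of members are thus read against backgrounds in which a large part of the transcriptome was called. The combined fit counts any difference between the clones as spread, so it called fewer members than the fit of the clones on their own.

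**Figure D1:**
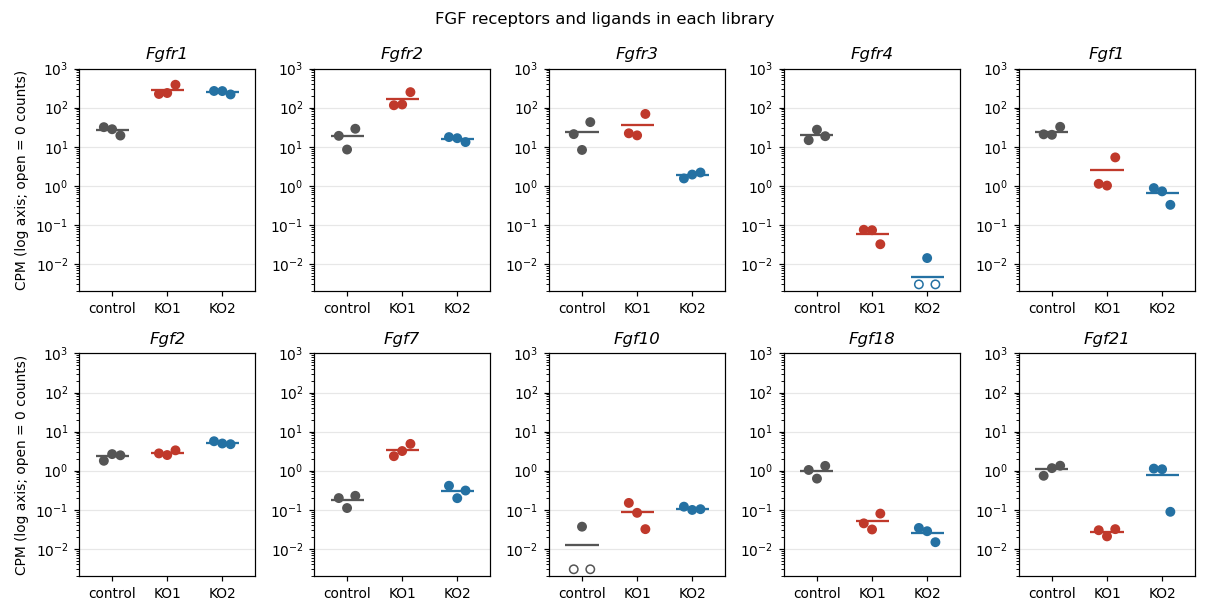
CPM of each member in each library on a log axis, with 3 points a group (control, KO1, KO2), horizontal bars for the group means and open circles for 0 counts. Fgfr1 lies between 19.3 and 31.6 CPM in control cells and at 218 CPM or more in all 6 KO libraries, while Fgfr4 lies at 14.7 CPM or more in control cells and at most 0.0749 CPM in all KO libraries.

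Fgfr1 encodes the receptor best known from mesenchymal and neural cells. It lies on chromosome 8 of GRCm38 (chr8:25513654-25575718, plus strand, 18 exons in the transcript with the longest coding sequence). Its level was 31.6, 28.0 and 19.3 CPM in control cells, 224, 237 and 385 CPM in KO1 and 267, 265 and 218 CPM in KO2. Every KO library was above every control library. The increase was 10.1-fold over both clones (log2 3.34 ± 0.26 SE, adjusted p = 1.26e-05), 10.7-fold in KO1 (adjusted p = 4.77e-06) and 9.49-fold in KO2 (adjusted p = 8.26e-06). The clones were not told apart (log2 difference KO1 minus KO2 0.17, 95% interval -0.36 to 0.71, adjusted p = 0.595), and the interval does not show that they are equal. Without KO1 replicate 3 the KO1 increase was 3.13 on the log2 scale and the difference between the clones -0.12.

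Fgfr2, the receptor whose epithelial isoform answers to Fgf7 and Fgf10, lies on chromosome 7, minus strand. GENCODE's gene model (chr7:130162451-133123350) includes long transcripts that run over many neighbouring genes, and the counts do not separate isoforms. Control libraries held 19.0, 8.47 and 28.8 CPM, KO1 libraries 115, 120 and 249 CPM and KO2 libraries 17.6, 16.5 and 13.1 CPM. KO1 lay above every other library, while KO2 fell inside the control range. The increase in KO1 was 8.60-fold (log2 3.10 ± 0.45 SE, adjusted p = 0.000281), and it was 2.65 on the log2 scale without KO1 replicate 3 (adjusted p = 0.000438). In KO2 the log2 fold change was -0.25 (95% interval -1.20 to 0.69, adjusted p = 0.646). The direct comparison put KO1 10.2-fold above KO2 (log2 3.36 ± 0.46 SE, adjusted p = 0.000567). Over both clones together the change did not pass the test (log2 2.24, adjusted p = 0.113).

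Fgfr3 (chr5:33721674-33737068, plus strand) encodes a receptor known from cartilage and from bladder epithelium. It was at 21.0, 8.27 and 42.7 CPM in control cells, 22.0, 19.5 and 69.0 CPM in KO1 and 1.54, 1.94 and 2.19 CPM in KO2. The range of the control libraries held 2 of the 3 KO1 libraries, and all KO2 libraries lay below every other library. KO2 was 12.7-fold lower than control cells (log2 -3.66 ± 0.67 SE, adjusted p = 0.00144). This value was -2.96 without control replicate 3, with an adjusted p of 0.0039. In KO1 the log2 fold change was 0.62 (95% interval -0.73 to 1.96, adjusted p = 0.398), and it turned to -0.20 without KO1 replicate 3. Between the clones the difference was 4.28 on the log2 scale (adjusted p = 0.0014), and 3.46 without KO1 replicate 3 (adjusted p = 0.00176).

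Fgfr4 (chr13:55152640-55168759, plus strand), the receptor of hepatocytes and the bile acid axis, had the lowest mean level per length of the 10 members in both clones, within the spread of Fgf10 in KO1. Control libraries held 14.7, 27.3 and 18.6 CPM, or 1845, 1478 and 1471 counts. KO1 libraries held 5, 7 and 2 counts and KO2 libraries 0, 1 and 0 counts, with no overlap between the clones and control cells. In KO1 Fgfr4 fell by 8.32 on the log2 scale (± 0.43 SE, adjusted p = 5e-07), a 319-fold decrease. Against the single count in KO2 the ratio was 3644-fold lower, with a 95% counting interval from 654 to 143966. KO1 held more than KO2 (14 against 1 counts, ratio 12.2 with a 95% counting interval from 1.86 to 517, adjusted p = 0.0189). That difference between the clones rests on a handful of reads and was lost without KO1 replicate 2 (adjusted p = 0.0537), without KO2 replicate 1 (0.0551) and without KO2 replicate 3 (0.0624). The call was also lost with limma-voom, the study's test.

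**Figure D2:**
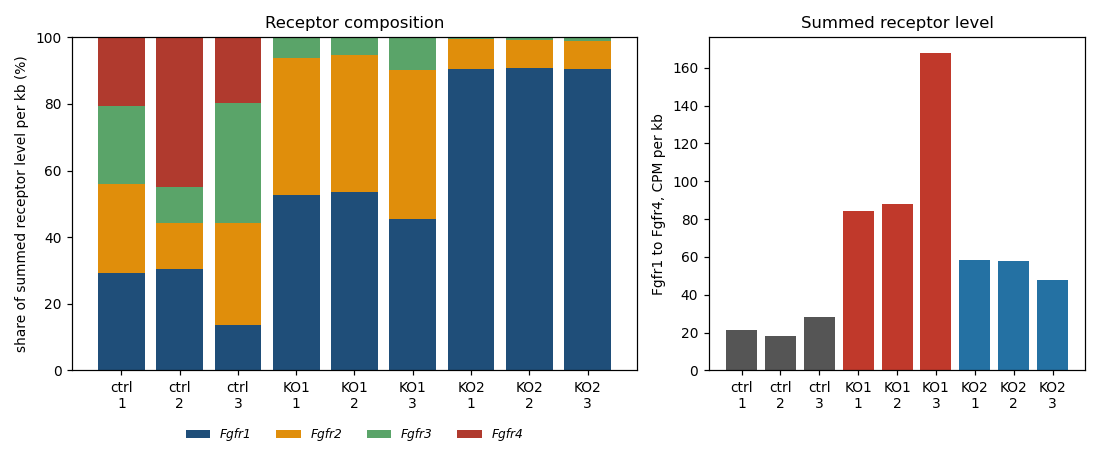
Left, share of each receptor in the summed level of Fgfr1 to Fgfr4 per kilobase of transcript in each library (%, ctrl stands for control); right, that sum in CPM per kilobase. The 4 receptors each hold between 10.7% and 44.9% in control libraries, Fgfr1 and Fgfr2 hold nearly all of the sum in KO1, and Fgfr1 alone holds over 90% in KO2.

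Levels of different genes can be compared only per length, so each was divided by the length of its transcript with the longest coding sequence. In control cells the 4 receptors then lay side by side at 6.08 ± 1.94 (Fgfr4), 5.67 ± 4.12 (Fgfr3), 5.64 ± 3.06 (Fgfr2) and 5.22 ± 1.26 (Fgfr1) CPM per kilobase (SD, n = 3), with no neighbouring pair further apart than its spread. Fgf1, at 6.13 ± 1.72 CPM per kilobase, stood level with them. In KO1 Fgfr1 (55.9 ± 17.8) and Fgfr2 (48.6 ± 22.8) stood together, above Fgfr3 (8.72 ± 6.59). In KO2 Fgfr1 (49.6 ± 5.56) stood apart from Fgfr2 (4.75 ± 0.70), and Fgfr3 came down to 0.447 ± 0.077. As a share of the summed receptors, Fgfr1 went from 24.5% ± 9.43 in control cells to 50.6% ± 4.35 in KO1 and 90.5% ± 0.171 in KO2. Fgfr4 went from 28.5% ± 14.2 to 0.0192% ± 0.0117 and 0.00244% ± 0.00423. The summed receptor level per kilobase rose from 18.3 to 28.2 CPM in control libraries to 84.3 to 168 CPM in KO1 and 47.7 to 58.6 CPM in KO2, without overlap between any of the groups. These shares are a description of the libraries and carry no test.

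**Figure D3:**
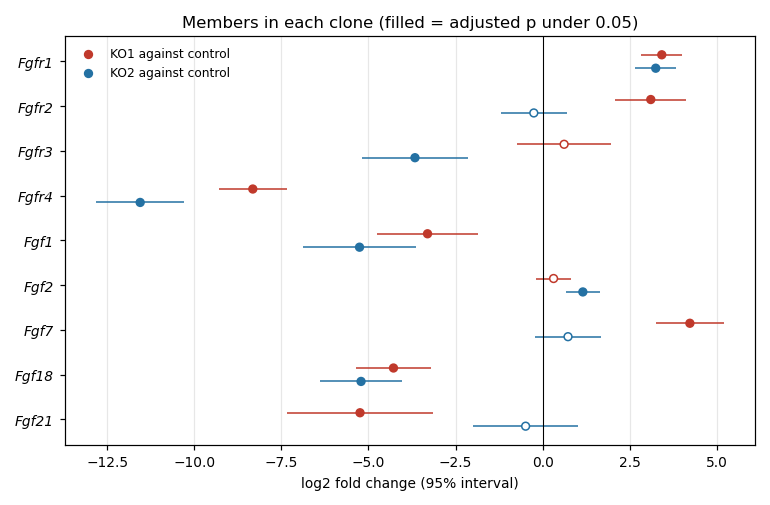
Log2 fold change of the 9 tested members in KO1 (red) and KO2 (blue) against the same 3 control libraries, with 95% intervals and filled points for an adjusted p under 0.05. Fgfr1, Fgfr4, Fgf1 and Fgf18 lie on the same side of 0 in both clones, while Fgfr2 and Fgf7 lie away from 0 only in KO1 and Fgfr3 only in KO2; the points of Fgfr4 and Fgf18 in KO2 and Fgf21 in KO1 rest on fewer than 10 counts a group.

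Fgf1, a broad ligand that binds all FGF receptors and leaves cells without a signal peptide, was the most abundant of the 6 ligands in control cells per length. It lies on chromosome 18, minus strand, opposite Arhgap26, and strand was kept in counting. Its level was 20.8, 20.2 and 32.3 CPM in control cells, 1.12, 1.01 and 5.33 CPM in KO1 and 0.874, 0.721 and 0.325 CPM in KO2. All KO libraries lay below all control libraries, with KO1 replicate 3 the nearest to them. Fgf1 fell by 3.30 on the log2 scale in KO1 (± 0.65 SE, adjusted p = 0.00171) and by 5.26 in KO2 (± 0.72 SE, adjusted p = 0.000244). The KO1 value was -4.51 without KO1 replicate 3. The clones differed by 1.95 (adjusted p = 0.0411), a call that was lost without KO1 replicate 3 (0.74, adjusted p = 0.167) and also when any single control or KO2 library was left out (adjusted p from 0.051 to 0.132). Limma-voom, the study's test, did not make this call either, nor did a fit of only the 6 KO libraries.

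Fgf2 is a mitogen that, like Fgf1, is exported without a signal peptide. Control cells held 1.79, 2.66 and 2.48 CPM, KO1 2.77, 2.51 and 3.32 CPM and KO2 5.67, 4.96 and 4.76 CPM. KO2 lay above every other library, and KO1 overlapped control cells. The increase in KO2 was 2.23-fold (log2 1.15 ± 0.22 SE, adjusted p = 0.0018), against a log2 value of 0.31 in KO1 (95% interval -0.18 to 0.81, adjusted p = 0.243). KO1 was lower than KO2 (log2 difference -0.84, adjusted p = 0.0144), a call lost without KO1 replicate 2 (adjusted p = 0.0518). Fgf2 overlaps the antisense genes Nudt6 and Fgf2os.

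Fgf7, or keratinocyte growth factor, is made by mesenchymal cells and binds the epithelial isoform of Fgfr2. It stood at 0.199, 0.111 and 0.228 CPM in control cells, 2.35, 3.18 and 4.85 CPM in KO1 and 0.411, 0.198 and 0.311 CPM in KO2. KO1 was above every other library, and KO2 overlapped control cells. The increase in KO1 was 18.7-fold (log2 4.23 ± 0.43 SE, adjusted p = 2.97e-05), and KO2 gave 0.73 on the log2 scale (95% interval -0.23 to 1.69, adjusted p = 0.183). KO1 exceeded KO2 by 3.50 on the log2 scale (adjusted p = 0.000274). The combined increase (log2 3.37, adjusted p = 0.0408) did not pass when any single control or KO1 library was left out (adjusted p from 0.0572 to 0.131). With limma-voom, the study's test, the combined increase did not pass either. Fgf7 and Fgfr2 were thus both higher in KO1 than in KO2 and in control cells.

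Fgf10, the close relative of Fgf7 in branching epithelia, was at the limit of these libraries. Its counts were 0, 2 and 0 in control cells, 10, 8 and 2 in KO1 and 7, 7 and 7 in KO2. Only KO2 lay above all control libraries. It failed the filter on low counts and was not tested; without the filter the combined log2 fold change was 3.22 ± 0.996 SE (adjusted p = 0.0379).

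Fgf18, a ligand that favours the mesenchymal receptor isoforms and Fgfr3, held 131, 34 and 105 counts in control cells, 3, 3 and 5 counts in KO1 and 2, 2 and 1 counts in KO2. The groups were separated in each clone. It fell by 4.28 on the log2 scale in KO1 (± 0.48 SE, adjusted p = 4.99e-05). In KO2 the ratio was 41.0-fold lower with a 95% counting interval from 17.4 to 127 (adjusted p = 3.41e-05). The clones were not told apart (log2 difference 0.93, 95% interval -0.52 to 2.38, adjusted p = 0.316).

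Fgf21, the endocrine ligand known as a hormone of fasting and of cell stress, held 93, 63 and 106 counts in control cells, 2, 2 and 2 counts in KO1 and 66, 77 and 6 counts in KO2. Scaled, KO2 stood at 1.13, 1.09 and 0.0887 CPM, so that KO2 replicates 1 and 2 lay among the control libraries (0.741, 1.16 and 1.34 CPM) and replicate 3 lay below them. In KO1 the ratio was 38.0-fold lower with a 95% counting interval from 17.2 to 105 (adjusted p = 0.000926). KO2 did not pass the test (log2 -0.49, 95% interval -1.996 to 1.02, adjusted p = 0.573), and its value was 0.027 without replicate 3. KO1 was below KO2 (log2 difference -4.75, adjusted p = 0.00366).

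For 3 ligands the RefSeq window of 250 bases upstream of the start lay outside the GENCODE gene, and these are shown because they belong to 3 different patterns: Fgf7 rose in KO1, Fgf18 fell in both clones and Fgf21 fell in KO1. Sequences are from RefSeq on GRCm38.p6 and read 5′ to 3′ on the strand of the gene, at chr2:126034408-126034657 (plus), chr11:33147401-33147650 (minus) and chr7:45615491-45615740 (minus). Capitals mark the motifs listed after them, on either strand.
Fgf7: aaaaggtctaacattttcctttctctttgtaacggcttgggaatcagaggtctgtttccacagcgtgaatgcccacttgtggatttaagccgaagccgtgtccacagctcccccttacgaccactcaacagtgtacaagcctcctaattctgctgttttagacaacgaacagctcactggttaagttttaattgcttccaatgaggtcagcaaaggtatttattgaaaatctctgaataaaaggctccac
Fgf18: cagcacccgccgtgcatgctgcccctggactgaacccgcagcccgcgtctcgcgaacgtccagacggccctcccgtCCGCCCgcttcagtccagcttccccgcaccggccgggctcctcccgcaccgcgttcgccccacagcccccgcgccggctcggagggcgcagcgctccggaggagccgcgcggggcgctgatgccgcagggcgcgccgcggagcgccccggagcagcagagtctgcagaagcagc
Fgf21: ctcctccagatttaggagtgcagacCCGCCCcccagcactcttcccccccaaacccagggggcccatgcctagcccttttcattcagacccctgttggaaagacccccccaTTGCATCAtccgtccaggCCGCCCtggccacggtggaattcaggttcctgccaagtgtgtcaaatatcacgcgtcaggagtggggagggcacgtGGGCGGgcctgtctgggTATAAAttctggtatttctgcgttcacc

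These 3 windows differ in base composition. That of Fgf7 is 43.6% G and C with 6 CpG, that of Fgf18 77.2% with 37 CpG and that of Fgf21 59.6% with 9 CpG, where the median of all 32851 windows is 52.4% and 6 CpG. The capitals in Fgf18 and Fgf21 mark the GC box GGGCGG, which is found in 32.7% of all windows, with 1 match in Fgf18 and 3 in Fgf21. Fgf21 also holds the TATA box TATAAA (12.4% of all windows) and the reverse strand of TGATGNAA, the element of the stress factor ATF4 (3.45% of all windows), with 1 match each. No match was found in the 9 windows of the 8 matched members for the HNF4 half-site AAGTCCA (3.36% of all windows), the E-box CACCTG (17.2%), the AP-1 site TGANTCA (6.75%) or the ETS site CCGGAAG (6.91%). The GC box was also found in Fgfr3, Fgfr4, Fgf2 and Fgf10. Fgfr1 and Fgf1 were not searched, and windows on chromosome 18, where Fgf1 lies, were left out of those of the members. Both strands were searched, no marked motif overlaps another kind of motif, and a match is a description of letters, not of a bound factor.

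Around the members, most other FGF ligands were near or below detection. Of 12 other secreted ligands, 3 passed the filter. Fgf15, the gut hormone that acts on Fgfr4 and Klb, was at 0.773, 0.572 and 1.20 CPM in control cells and at 0.0599 CPM or less in every KO library (log2 -5.51, adjusted p = 0.00057). Fgf9 was at 0.239, 0.221 and 0.202 CPM in control cells, at most 0.0479 CPM in KO1 and at 0 counts in all KO2 libraries, at least 14.7-fold lower there. Fgf17 was the only one of these that rose, from at most 0.0638 CPM in control libraries to between 0.141 and 0.798 CPM in KO libraries (log2 3.05, adjusted p = 0.0123). All 3 tested FGF homologous factors fell in both clones, beside 59.9% of all tested genes called in KO1 and 51.4% in KO2. These factors stay inside the cell and do not act through the receptors. Fgf13 and Fgf14 passed the filter through the control libraries alone, so they could hardly come out other than lower. A further factor, Fgf12, failed the filter, with 0 counts in control cells and 12 over the KO libraries. Fgf13 fell from 3.28 to 7.42 CPM in control libraries to 2 counts over KO1 and 0 over KO2, Fgf14 from 170 counts to 0 in both clones, and Fgf11 by 1.62 on the log2 scale in KO1 and 2.62 in KO2.

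Coreceptors and binding proteins fell in 5 of 7 tested genes and rose in 1, in each clone, beside 59.9% of all tested genes called in KO1 (5290 higher and 5296 lower) and 51.4% in KO2 (4469 higher and 4618 lower). Klb, the beta-Klotho coreceptor that Fgf15 and Fgf21 need, was at 4.79, 3.56 and 8.61 CPM in control cells, 0.389, 0.230 and 0.319 CPM in KO1 and 0.0514, 0.0283 and 0.0592 CPM in KO2 (log2 -4.96, adjusted p = 0.000656). Fgfr4, its coreceptor Klb and the ligand Fgf15 were thus all lower in both clones. Fgfbp1, a carrier that releases FGFs from the matrix, held 2600 counts in control cells and 1 count over all 6 KO libraries (adjusted p = 2.39e-06). Fgfrl1, a receptor without a kinase domain, rose from 11.7, 8.75 and 13.2 CPM to 159, 149 and 303 CPM in KO1 and to 48.1, 50.9 and 48.8 CPM in KO2 (log2 3.49, adjusted p = 0.00405). It was higher in KO1 than in KO2 by 2.05 on the log2 scale (adjusted p = 0.000472). The adhesion proteins Flrt1, Flrt2 and Flrt3, partners of FGF receptors, fell with log2 values of -1.73, -3.26 and -1.70 over both clones. Fgfbp3 did not pass the test (log2 0.21, adjusted p = 0.629).

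**Figure D4:**
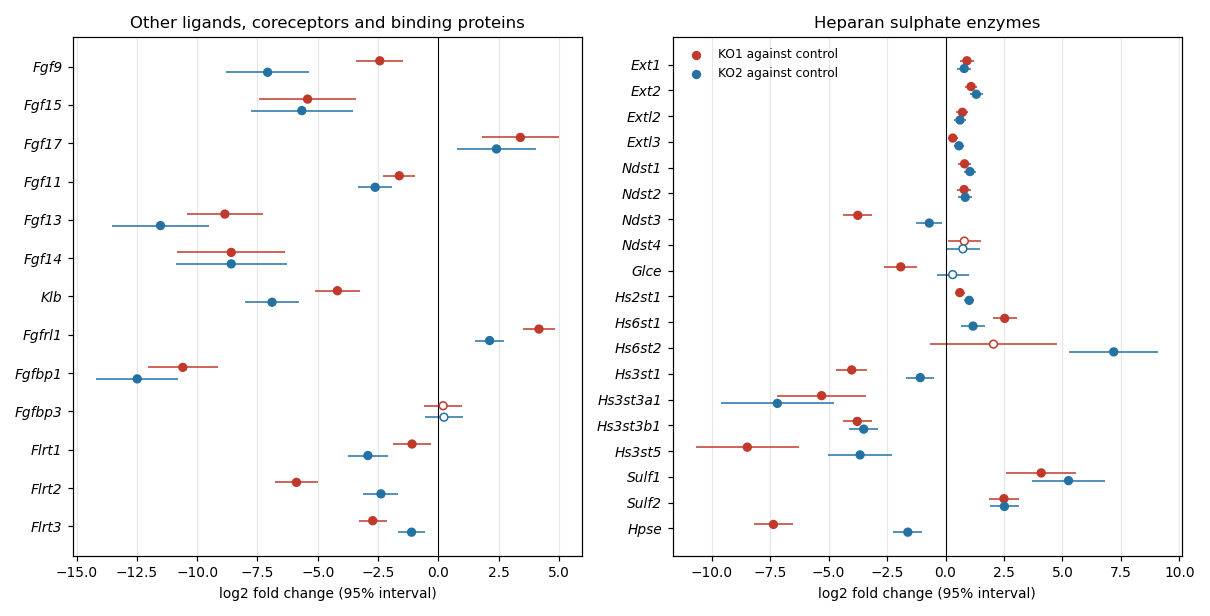
Log2 fold changes in KO1 (red) and KO2 (blue) against control libraries with 95% intervals for other FGF genes, coreceptors and binding proteins (left) and for heparan sulphate enzymes (right), with filled points for an adjusted p under 0.05. Fgf17 and Fgfrl1 are the called genes above 0 on the left; Sulf1 and Sulf2 lie above 0 in both clones on the right; the values of Fgf9 in KO2, of Fgf13, Fgf14 and Fgfbp1 and of Hs3st5 in KO1 depend on the fit, since KO counts are at or near 0.

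Heparan sulphate is the cell surface sugar that paracrine FGFs need for receptor binding. Of 19 tested enzymes 11 rose, 3 fell and 5 did not pass the test over both clones, beside 43.0% of all tested genes called, with a median log2 fold change of 0.78 beside 0.07 for all tested genes. In KO1 10 were higher and 7 lower and in KO2 11 were higher and 6 lower, beside 59.9% and 51.4% of all tested genes called. Sulf1, a sulphatase that trims the sugar outside the cell, was at 1.09, 0.203 and 0.152 CPM in control cells, 8.97, 5.96 and 11.5 CPM in KO1 and 23.2, 23.0 and 13.1 CPM in KO2 (log2 4.85, adjusted p = 0.00138). Sulf2 rose by 2.51 on the log2 scale (adjusted p = 7.8e-05) and the sulphotransferase Hs6st1 by 2.01 (adjusted p = 0.00717), more in KO1 than in KO2. Hs3st3b1, another sulphotransferase, fell by 3.63 (adjusted p = 5.81e-06). Heparanase (Hpse), named after its values were seen, went from 52.97, 40.8 and 38.9 CPM to at most 0.355 CPM in KO1 and to between 13.5 and 15.2 CPM in KO2, lower in each clone (adjusted p = 4.24e-07 and 0.000944) but not called over both together (adjusted p = 0.129).

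Genes of the relay from receptor to ERK changed in both directions. Of 22 tested genes 9 were higher and 8 lower over both clones, beside 43.0% of all tested genes called, with a median log2 fold change of 0.23 over genes that moved both ways. The adaptor Gab1 (log2 1.84, adjusted p = 0.0142) and the phospholipase Plcg1 (1.22, adjusted p = 0.00054) were among the genes that rose. Sos2, an exchange factor of RAS, fell by 1.62 (adjusted p = 0.000423) and the adaptor Crkl by 0.56 (adjusted p = 0.00722).

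Genes known to be raised by FGF and ERK signalling were more often lower than higher. Over both clones 1 of 20 tested genes rose, 6 fell and 13 did not pass the test, no larger a share than the 43.0% of all tested genes called, with a median log2 fold change of -0.66 beside 0.07 for all tested genes. In KO1 0 were higher and 13 lower, beside 59.9% of all tested genes called, and in KO2 3 were higher and 7 lower, beside 51.4%. Dusp6, the ERK phosphatase that ERK itself induces, was at 499, 507 and 643 CPM in control cells, 27.5, 32.2 and 82.1 CPM in KO1 and 43.7, 43.9 and 61.1 CPM in KO2, with no overlap (log2 -3.50 ± 0.31 SE, adjusted p = 2.81e-05). Spry4, a feedback inhibitor of the Sprouty family, fell by 2.07 on the log2 scale (adjusted p = 0.00193). The related Spry1 (log2 0.40, adjusted p = 0.381) and Spry2 (0.58, adjusted p = 0.114), named after their values were seen, did not pass the test. Ccnd1, the cyclin of entry into the cell cycle, fell by 2.07 (adjusted p = 0.0335). Il17rd, a membrane inhibitor of FGF signalling, rose by 0.71 (adjusted p = 0.0388).

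Between KO1 and KO2, 9 of 20 target genes were lower in KO1 and 0 higher, 11 not passing the test. Over all tested genes 38.7% were called in that comparison, a share close to that of the target genes, with 3568 higher and 3266 lower in KO1. Etv1, an ETS transcription factor, was the gene called in opposite directions, with 10.0, 6.24 and 9.49 CPM in control cells, 5.94, 5.06 and 5.59 CPM in KO1 and 56.8, 50.7 and 51.2 CPM in KO2. Its relatives Etv4 and Etv5, named with Dusp4 after their values were seen, were at 4.82 to 14.4 and 20.6 to 28.4 CPM in KO1 and at 128 to 143 and 54.3 to 91.8 CPM in KO2. Etv4 was thus lower in KO1 than in KO2 (log2 difference -3.75, adjusted p = 5.77e-05), as were Etv5 (-1.72, adjusted p = 0.000434) and Dusp4 (-3.60, adjusted p = 4.06e-05).

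**Figure D5:**
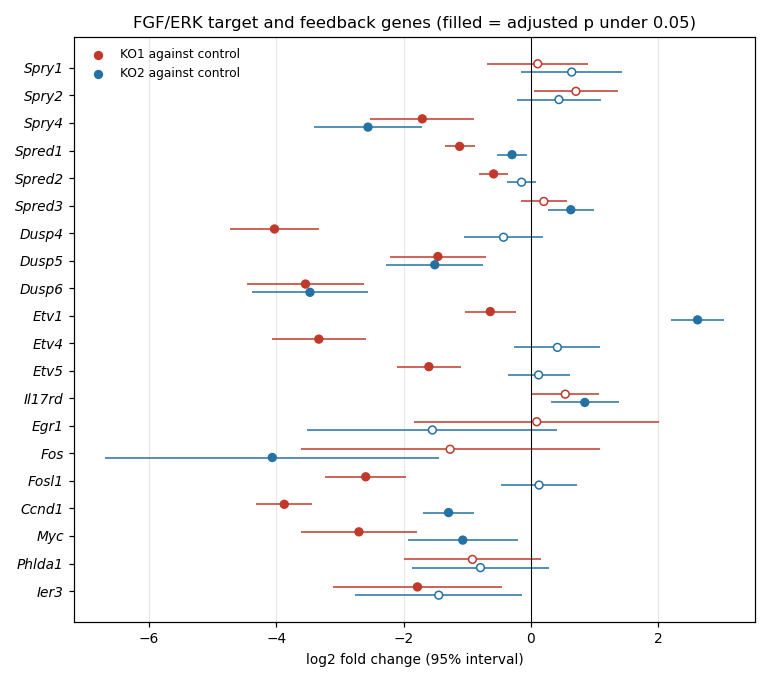
Log2 fold changes of 20 FGF and ERK target and feedback genes in KO1 (red) and KO2 (blue) against control libraries, with 95% intervals and filled points for an adjusted p under 0.05. Dusp6 and Spry4 lie below 0 in both clones, while Dusp4, Etv4, Etv5 and Fosl1 lie far below 0 only in KO1 and Etv1 lies above 0 only in KO2.

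Receptor isoforms could not be read from counts per gene. The splicing regulators Esrp1 and Esrp2, which make epithelial cells use the exon of the Fgf7-binding isoform, held 7.18, 4.85 and 9.46 CPM and 17.1, 19.5 and 22.5 CPM in control cells. Esrp1 held 3 counts over KO1 and 0 over KO2, and Esrp2 was at 0.128 CPM or less in every KO library (adjusted p = 3.08e-05 and 3.11e-05). Rbfox2, another regulator of these exons, rose by 0.69 on the log2 scale (adjusted p = 0.00804).

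The genes whose log2 CPM followed each member most closely over the 9 libraries were Htra1 (Pearson r = 0.9963) and Gna12 (0.9948) for Fgfr1, Ajm1 (0.9928) and Atl1 (0.9923) for Fgfr2, Cfap126 (0.9941) and Epas1 (0.9866) for Fgfr3 and Gnai1 (0.9974) and Sh2d4a (0.9973) for Fgfr4. Among ligands they were Cadm4 (0.9964) and Grtp1 (0.9953) for Fgf1, Ptdss1 (0.9857) and Dip2c (0.9845) for Fgf2 and Asxl2 (0.9917) and Myom1 (0.9911) for Fgf7. Fgf10, Fgf18 and Fgf21 had a mean under 1 CPM and were left out. These values describe 9 libraries that fall into 3 groups and share their controls, and many genes come close. Of 13087 genes compared, 654 had an r above 0.95 with Fgfr1 and 702 with Fgfr4, but only 8 with Fgf2.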

How the data were processed

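Messenger RNA libraries were made by the authors with a stranded kit and sequenced in pairs. Per the labels and the study's methods, the authors used kallisto 0.46.1 with mm10 transcripts (GENCODE vM24), and deposited estimated counts (expected counts) summed per gene symbol, without normalization. All values were whole, and 0 columns were left out. Positions and lengths are from GENCODE vM21 of the same build, and promoters from RefSeq.

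Groups follow the labels. Counts were scaled with TMM, filtered with filterByExpr (17672 of 55276 genes) and tested in edgeR 4.0.16 (R 4.3.3) with the quasi-likelihood test and Benjamini-Hochberg adjustment over all tested genes (threshold 0.05). The combined comparison used 2 groups, and the clones 3 groups over all 9 libraries. Genes at or near 0 are given as count ratios with exact 95% intervals, or against a floor of 3 counts over the group; these cover counting error only. With 53415907 to 125223073 counts a library, 3 counts are 0.0239 to 0.0554 CPM. Named were all members, all tested ligands, coreceptors and binding proteins, the 3 largest changes each way among called genes of the other lists with a mean of at least 1 CPM, any called in opposite directions in the clones, and the 2 genes most like each member. Some genes that this rule covers, some alleles of the cells and 1 searched motif are not reported here. The members, lists and motifs were chosen with earlier results of these data known. On simulated data for the combined comparison (17235 genes, 200 changed by 2-fold), the test found 99 of the changed genes, each with its true sign, and 5 unchanged ones. The simulated clones shared the same means and only the spread within groups. These numbers therefore do not describe the combined test on data in which the clones differ, as they do here. Alternatives were limma-voom (limma 3.58.1, the study's test), DESeq2 1.42.0, upper-quartile and RLE scaling, other filters, the mean of both clones' contrasts, fits of only the libraries compared, and leaving out each library.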

Additional observations from a re-analysis of the deposited data

Results flagged for a closer look

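In 3 members KO1 replicate 3 lay further from the other KO libraries than Dixon's 95% limit for 6 samples allows: Fgfr1 at 385 CPM, Fgfr3 at 69.0 CPM and Fgf1 at 5.33 CPM. Such a limit flags about 1 in 20 groups by chance, and the 6 KO libraries come from 2 clones, which widens their range.

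The clones differed from each other, by the test of KO1 against KO2, in 7 members, beside 38.7% of all tested genes called. What part is due to loss of Vcam1 and what to the history of each clone cannot be told apart. On the log2 scale, KO1 minus KO2, the difference was 3.36 for Fgfr2, 4.28 for Fgfr3, 3.23 for Fgfr4, 1.95 for Fgf1, -0.84 for Fgf2, 3.50 for Fgf7 and -4.75 for Fgf21. Those of Fgfr4, Fgf1 and Fgf2 were lost without certain single libraries. Those of Fgfr4 and Fgf1 were also lost with limma-voom, the study's test, and that of Fgf1 when only the 6 KO libraries entered the fit.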

How the results depend on the processing

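No paired analysis was possible because the labels carry no replicate numbers shared between groups. Members called over both clones were 9 with the mean of both clones' contrasts, which counts no clone difference as spread, against 5. Between the clones 4 were called when only the 6 KO libraries entered the fit, against 7. Leaving out single libraries gave 5 to 7. In the main fits 43.0% of all tested genes were called over both clones and 38.7% between the clones. The shares under the alternatives are not given here, so these counts are not read as results about the members. The counts for each clone against control kept within 1.5 times under every alternative run. Directions turned for values that had not passed the test: leaving out single libraries gave Fgfr3 from -1.38 to 0.39 over both clones and from -0.20 to 1.31 in KO1, Fgfr2 in KO2 from -0.63 to 0.19, Fgf21 in KO2 from -0.89 to 0.027 and Fgfr1 in KO1 minus KO2 from -0.12 to 0.28. Of the members' log2 fold changes under alternatives, 532 kept direction and call, 21 lost the call, 7 gained it and 5 turned. With the longest transcript as length, the share of Fgfr1 among receptors was 56.6% in KO1 and 92.5% in KO2. Depth limited Fgf10 in all groups, Fgfr4 and Fgf18 in both clones, and Fgf21 in KO1 and in KO2 replicate 3.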

Other observations

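Fgf21 is a known target of the stress factor ATF4, and the levels of ATF4 and of 3 of its known targets, chosen after the values of Fgf21 were seen, are given beside it without a test. Asns, asparagine synthetase, was at 355, 538 and 316 CPM in control cells, 46.7, 59.4 and 28.1 CPM in KO1 and 330, 360 and 95.7 CPM in KO2. Trib3, a pseudokinase, was at 318, 591 and 334 CPM, then 4.84, 6.27 and 4.01 CPM, then 163, 205 and 35.5 CPM. Chac1, a glutathione-degrading enzyme, was at 84.7, 167 and 103 CPM, then 4.99, 7.74 and 4.45 CPM, then 41.2, 48.4 and 18.0 CPM. All 3 were lowest in KO1, and within KO2 lowest in replicate 3, the library in which Fgf21 held 6 counts. Atf4 itself was at 868, 1350 and 901 CPM in control cells, 244, 298 and 385 CPM in KO1 and 534, 643 and 366 CPM in KO2.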
